A study of Mus musculus with 42 samples.

Results

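Linker histones of the H1 family are the 6 genes described here: H1f0, H1f1, H1f2, H1f3, H1f4 and H1f5 (older symbols of the last 5 are Hist1h1a, Hist1h1c, Hist1h1d, Hist1h1e and Hist1h1b). They were chosen from 20018 named genes on the array because H1f2 was higher in the lung of mice given the high dose than in vehicle lung. On the log2 scale that difference was 0.71, which is 1.64-fold, and it is given below as a description, with no test, as are all other values of high-dose lung against vehicle lung. Each gene is represented by 1 probe. H1f2, H1f4 and H1f5 were well above background on all 42 arrays. H1f0 was well above background on 13 of 15 lung, 12 of 13 liver and 6 of 14 forestomach arrays, and H1f1 on 8, 10 and 6. The H1f3 probe did not reach the scanner's call of well above background on any of the arrays, in either channel, so it was not tested, and 5 of the 6 genes were tested in each tissue.

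The study dosed adult male Muta™Mouse animals, a transgenic strain that carries a bacterial reporter gene for mutation assays, with BkF (benzo(k)fluoranthene), one of the polycyclic aromatic hydrocarbons that form in incomplete combustion. BkF dissolved in olive oil was given by gavage every day for 28 days at 25 (low dose, D1), 50 (medium dose, D2) or 100 mg/kg-bw/day (high dose, D3), and vehicle mice (D0) received olive oil alone. Mice were about 11 weeks old, and lung, liver and forestomach were taken 72 hours after the final dose. RNA of each tissue was labelled with Cy5 and hybridised against a Cy3-labelled universal mouse reference RNA pooled from 11 cell lines. All groups carried the same transgene and received the same vehicle. The groups D0, D1, D2 and D3 held 4, 3, 4 and 4 mice in lung, 4, 2, 3 and 4 in liver, and 4, 3, 4 and 3 in forestomach, and a mouse number marks the same animal in each tissue. A level below is the log2 ratio of tissue over reference for 1 probe, and levels of different probes cannot be set against each other. Bulk tissue was measured, so more cells that express a gene and more RNA per cell cannot be told apart.

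Linker histones bind DNA where it enters and leaves the nucleosome and help to fold chromatin. H1f1 to H1f5 lie in histone gene clusters and are transcribed mainly while DNA is replicated, and most of their transcripts end in a stem-loop in place of a poly(A) tail. H1f0 is the replacement linker histone, which accumulates in cells that have stopped dividing and whose transcript is polyadenylated. The labelling reaction starts from poly(A) tails, so for the clustered genes it reads only transcripts that carry one.

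H1f1, H1f2, H1f3, H1f4 and H1f5 lie on mouse chromosome 13 (GRCm38.p6, RefSeq) at 23763668 to 23764412, 23738807 to 23739531, 23555032 to 23555807, 23621777 to 23622558 and 21779832 to 21780625. H1f0 lies on chromosome 15 at 79028212 to 79030504. The 150 bases before the transcript start are printed for the genes on which the results below turn, from the RefSeq promoter windows, 5′ to 3′ on the gene's own strand. H1f2 and H1f4 had the high values in high-dose lung, H1f5 had the widest range between tissues, and H1f0 is the gene outside the clusters. Capitals mark the H1 box AAACACA, the CCAAT motif on either strand and the TATA forms TATAAA and TATATA, which overlap each other where they share bases.
H1f2 (chr13:23738657-23738806, plus strand): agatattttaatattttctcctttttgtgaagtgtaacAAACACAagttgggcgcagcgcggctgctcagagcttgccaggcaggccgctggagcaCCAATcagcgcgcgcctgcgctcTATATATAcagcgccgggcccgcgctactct
H1f4 (chr13:23622559-23622708, minus strand): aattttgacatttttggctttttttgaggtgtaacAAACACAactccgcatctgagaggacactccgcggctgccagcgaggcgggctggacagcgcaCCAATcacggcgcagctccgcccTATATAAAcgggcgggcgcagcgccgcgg
H1f5 (chr13:21780626-21780775, minus strand): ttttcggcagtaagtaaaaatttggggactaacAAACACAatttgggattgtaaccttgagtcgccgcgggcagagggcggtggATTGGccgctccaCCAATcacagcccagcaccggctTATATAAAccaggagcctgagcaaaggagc
H1f0 (chr15:79028062-79028211, plus strand): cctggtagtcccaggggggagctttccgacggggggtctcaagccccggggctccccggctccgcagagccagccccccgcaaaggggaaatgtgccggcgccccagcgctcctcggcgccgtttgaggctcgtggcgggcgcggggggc
The H1 box, a motif known from linker histone promoters, began 112, 122, 115 and 117 bases before the start of H1f2, H1f3, H1f4 and H1f5, and AAACACA was found on either strand of 7.18% of 32851 promoter windows of 300 bases. CCAAT began 51 to 56 bases before the start of each clustered gene and was found in 37.4% of windows, and H1f5 had 2 further matches, 66 (reverse strand) and 168 bases before its start. A TATA form began 26 to 33 bases before the start of all 5 clustered genes, with TATAAA in 13.6% and TATATA in 5.67% of all windows. The window of H1f0 held none of these motifs. GCGTG, the core of the sequence bound by the Ah receptor, through which polycyclic aromatic hydrocarbons induce Cyp1a1, was present on either strand in the windows of H1f0, H1f3 and H1f5 and in 32.4% of all windows. These letters were not in the windows of H1f1, H1f2 and H1f4.

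Markers of the labelled tissues were high where the labels put them. Transcripts of other tissues were also present on some lung arrays and 1 liver array, as given beside the results they touch. The forestomach arrays differed in their content of glandular stomach. In vehicle mice, 6 of 6 lung markers were called higher in lung than in liver and forestomach, 6 of 6 liver markers were called higher in liver than in both, and 6 of 7 squamous epithelium markers were called higher in forestomach than in lung, where 40.8% (lung and liver), 33.5% (lung and forestomach) and 37.5% (liver and forestomach) of all probes were called in either direction. As a sign of exposure, Cyp1a1, a cytochrome P450 induced through the Ah receptor, had a mean level in lung of 2.67 at D0, 6.78 at D1, 8.96 at D2 and 9.48 at D3. In liver it lay between -0.09 and 0.23 at D0 and between 2.62 and 7.15 at D2 and D3, but at D1 1 of 2 mice had the vehicle level (-0.02) and the other had 4.61. In forestomach it lay between -0.39 and 0.60 at D0 and between 0.64 and 4.78 at D2 and D3, and D1, at 0.12 to 1.93, overlapped with vehicle. Lung and forestomach shared 4 slides and liver lay on 2 slides of its own, so liver and slide cannot be told apart, and in nearly every case 1 dose group took 1 array position on the slides, so dose and position can hardly be told apart either.

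In lung, H1f2 was higher with each dose step in the group means, and its individual values separated from D2 on. The levels were 0.31, 0.24, 0.28 and 0.16 in vehicle mice 1, 2, 3 and 4, and 0.48, 0.51 and 0.28 in low-dose mice 7, 8 and 9. Medium-dose mice 11, 12, 13 and 15 had 0.67, 0.61, 0.72 and 0.74, and high-dose mice 16, 17, 19 and 20 had 1.16, 0.99, 0.74 and 0.95. All 8 mice of D2 and D3 lay above all 4 vehicle mice, 2 of 3 low-dose mice did so, and the D2 and D3 groups met at 0.74. Of all lung probes 1.2% had this order at D2 and 2.94% at D3, and nothing is read from the D3 order, since that contrast chose the genes. Group means were 0.25 ± 0.06 (SD, n = 4) at D0, 0.42 ± 0.13 (n = 3) at D1, 0.68 ± 0.06 (n = 4) at D2 and 0.96 ± 0.17 (n = 4) at D3.

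**Figure D1:**
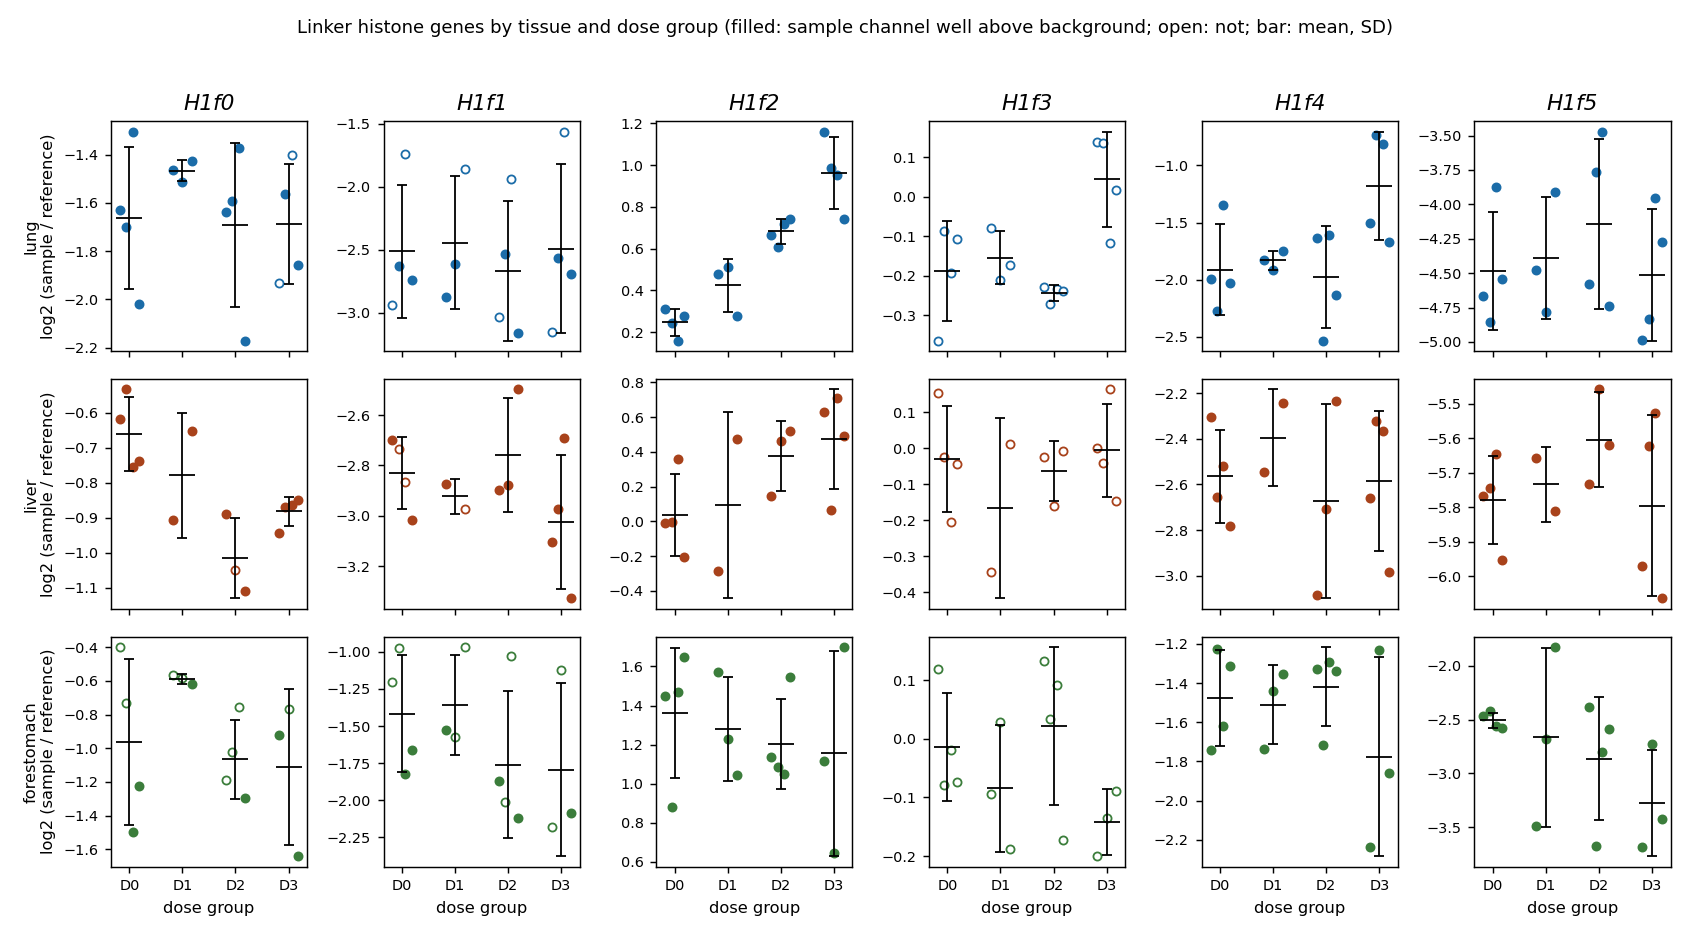
Level of each linker histone gene (log2 ratio of tissue over reference, vertical axes) by dose group (D0 to D3, horizontal axes) in lung, liver and forestomach; each point is 1 mouse, filled where the probe was well above background, and bars give the group mean and SD. H1f2 in lung runs from 0.16 to 0.31 at D0 up to 0.74 to 1.16 at D3, while H1f0, H1f1 and H1f5 in lung overlap between all dose groups.

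At the medium dose the difference of H1f2 in lung was 0.44 (SE 0.10, 95% interval 0.23 to 0.64, 1.35-fold). It was not called, with an adjusted p of 0.484 in limma over all 32697 probes, and the adjusted p ran from 0.204 with the slide as a block to 1.00 with only D0 and D2 fitted. Of the lung probes, 0.0153% were called at this dose, and 0 of the 5 linker histone genes were. One medium-dose lung array, of mouse 12, carried skeletal muscle transcripts (marker score 5.53, against -0.21 to 0.27 on all other lung arrays) and squamous epithelium transcripts (score 3.18, against -0.22 to 0.13), and without it the H1f2 difference was 0.46. At the low dose the difference of H1f2 was 0.18 (95% interval -0.05 to 0.40, adjusted p 1.00 in limma), at which dose 0% of probes were called. Low-dose lung arrays of mice 7 and 8 carried glandular stomach transcripts (scores 3.61 and 0.80 over 9 marker genes, against -0.29 to 0.33 on all other lung arrays). The difference was 0.15 without mouse 7 and 0.13 without mouse 8, and the remaining low-dose mouse, 9, lay within the vehicle range. The part of these transcripts in the H1f2 values was not tested. Heart muscle transcripts varied widely over the lung arrays, with scores (4 marker genes) of -2.43 to 0.86 at D0, 0.06 to 1.86 at D1, -2.40 to 1.67 at D2 and -0.21 to 1.59 at D3, and group means of -0.93, 0.83, -0.24 and 0.39, lowest in vehicle. The part of heart muscle in the H1f2 values was not tested. Both comparisons use the same vehicle arrays as the high-dose values that chose the gene, so they are not independent of that choice.

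In high-dose lung the description of the other genes differed from gene to gene. H1f4 had levels of -1.99, -2.28, -2.03 and -1.35 in vehicle mice 1 to 4 and -1.50, -0.73, -1.67 and -0.81 in high-dose mice 16, 17, 19 and 20. Mice 17 and 20 lay above all vehicle mice, while mice 16 and 19 lay within the vehicle range. Its difference was 0.73 (1.66-fold), close to the 0.71 of H1f2, but with group SDs of 0.40 and 0.48 against 0.06 and 0.17. H1f0, H1f1 and H1f5 had differences of -0.03, 0.02 and -0.03, whose signs were not stable: without 1 array they ran from -0.14 to 0.09, -0.29 to 0.27 and -0.21 to 0.18. With the ratios of the scanner software H1f0 differed by -0.46 and H1f1 by -0.18. The calling rule was met by 0.0336% of all probes in this contrast, and no count of linker histone genes is set beside it because the contrast chose them. Over the fits that left out 1 array each, the difference of H1f4 ran from 0.58 (without mouse 17) to 0.92 (without vehicle mouse 4), while that of H1f2 ran from 0.65 to 0.79. The 10 spike-in control transcripts, which are added in equal amounts, were 0.27 to 0.49 higher on high-dose than on vehicle lung arrays and -0.10 to 0.05 different on medium-dose arrays, and their part in the high-dose values was not tested.

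Each slide held 1 lung array of nearly every dose group, so the lung doses could be compared within slides. Within the 4 slides H1f2 was higher at D2 than at D0 by 0.35 to 0.56 and at D3 by 0.47 to 0.85, and within the 3 slides with a low-dose array it was higher at D1 by 0.12 to 0.27. H1f4 was higher at D3 than at D0 on all 4 slides, by 0.36 to 1.55, but at D2 it was higher on 1 slide and lower on 3. H1f5 ran from 0.32 lower to 0.27 higher at D3. Levels of other genes differed between slides. The lung mean of H1f1 was -1.78 on slide 3 against -3.00 to -2.58 on the others, and that of H1f5 was -3.80 against -4.68 to -4.52, whereas slide means of H1f2 lay between 0.53 and 0.65.

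**Figure D2:**
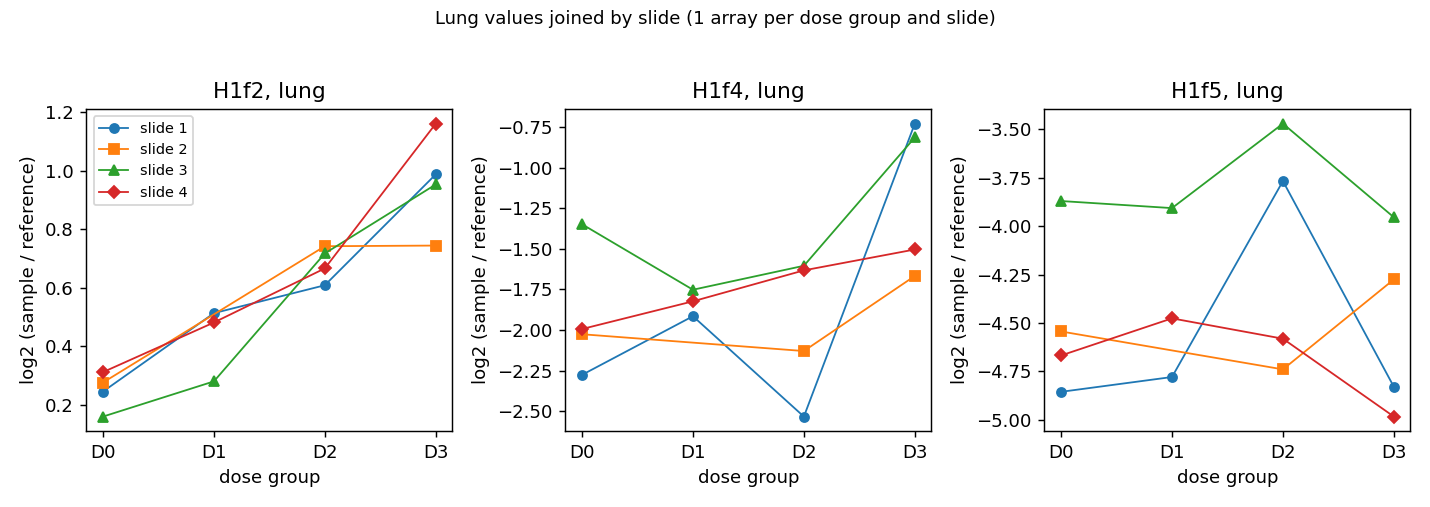
Lung levels of H1f2, H1f4 and H1f5 (log2 ratio of tissue over reference, vertical axes) by dose group (horizontal axes), with the arrays of 1 slide joined by a line. The H1f2 line is higher at D2 and D3 than at D0 on all 4 slides, the H1f4 line is higher at D3 on all 4, and the H1f5 line of slide 3 is the highest in every dose group.

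At the lower doses the remaining lung values were small against their spread. H1f4 differed by 0.08 at D1 and -0.06 at D2 (95% intervals -0.51 to 0.67 and -0.61 to 0.48). H1f5 differed by 0.34 at D2 (95% interval -0.33 to 1.02, adjusted p 1.00 in limma), with mice 12 and 13 above all vehicle mice. Without 1 array this value ran from 0.12 (without mouse 13) to 0.55 (without vehicle mouse 4), and it was 0.22 without mouse 12, whose array carried the transcripts of other tissues. H1f0 and H1f1 differed by -0.16 to 0.20 at these doses.

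In liver, the group means of H1f2 also stood above vehicle at the medium and high dose, but the groups overlapped and no linker histone gene was called. Vehicle mice 1 to 4 had levels of -0.01, -0.00, 0.36 and -0.21, low-dose mice 8 and 9 had -0.29 and 0.47, and medium-dose mice 11, 12 and 13 had 0.15, 0.46 and 0.52. High-dose mice 16, 17, 19 and 20 had 0.63, 0.07, 0.71 and 0.49. Vehicle mouse 3 and high-dose mouse 17 made the groups overlap, and 3 of 4 high-dose mice lay above all vehicle mice. The high-dose difference was 0.44 (SE 0.19, 95% interval 0.04 to 0.84, 1.36-fold, adjusted p 0.601 in limma), that at the medium dose was 0.34 (95% interval -0.09 to 0.78, adjusted p 0.568), and that at the low dose was 0.06. The linear trend of H1f2 in liver was 0.46 per 100 mg/kg-bw/day (95% interval 0.09 to 0.83, adjusted p 0.496 in limma). Of the liver probes 0% were called at D1, 0.0427% at D2, 0.0525% at D3 and 0% in the trend, and 0 of the 5 linker histone genes in each. The liver array of mouse 17 carried skeletal muscle transcripts (score 4.71, against -0.15 to 0.07 on the other liver arrays), and without it the high-dose difference was 0.57. The spike-in transcripts were 0.52 to 0.73 lower on high-dose than on vehicle liver arrays.

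H1f0, the replacement linker histone, had liver levels at D2 and D3 that did not overlap with vehicle. Its levels were -0.62, -0.53, -0.76 and -0.74 in vehicle mice 1 to 4, -0.89, -1.05 and -1.11 in the medium-dose mice, and -0.94, -0.87, -0.86 and -0.85 in the high-dose mice. All 7 mice of both doses lay below all vehicle mice, as did 4.76% of probes at D2 and 3.03% at D3 in this direction. The difference was -0.35 at D2 (SE 0.10, 95% interval -0.57 to -0.14, adjusted p 0.269 in limma) and -0.22 at D3 (95% interval -0.42 to -0.02, adjusted p 0.600), and neither was called. With the ratios of the scanner software the differences were -0.88 at D2 (adjusted p 0.160 in limma) and -0.48 at D3 (adjusted p 0.469), also not called. The spike-in transcripts were lower on these arrays as well, by 0.57 to 0.88 at D2, and their part in the H1f0 values was not tested. Mean H1f0 sample signals before normalisation did not fall, at 101, 104 and 112 at D0, D2 and D3. The probe was well above background on 2 of 3 medium-dose liver arrays. H1f1, H1f4 and H1f5 differed from vehicle by -0.20 to 0.17 over the 3 doses. Under the alternative processings H1f1 reached -0.33 at D1 and 0.54 at D2, and H1f5 reached 0.34 at D2, none called.

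In forestomach, the group mean of H1f2 was slightly below that of vehicle at each dose, and no difference was called. Vehicle mice 1 to 4 had levels of 1.45, 1.65, 1.47 and 0.88, and high-dose mice 16, 17 and 20 had 1.70, 1.12 and 0.65. The groups overlapped, and the differences were -0.08, -0.16 and -0.21 at D1, D2 and D3, with a 95% interval of -0.75 to 0.33 at D3. The direction at D1 was not stable: within the 2 slides that held both groups H1f2 was higher at D1 by 0.12 and 0.17, and with the slide as a block the D1 difference was 0.17 (adjusted p 0.779 in limma). Within slides the D2 values ran from -0.31 to 0.17 and the D3 values from -0.23 to 0.14. In this tissue 0% of probes were called at each dose and in the trend, and 0 of the 5 linker histone genes. The arrays also differed in their content of glandular stomach, as given with H1f5 below.

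H1f5, one of the clustered genes, had the largest high-dose difference of the 5 tested genes in forestomach. Its levels were -2.47, -2.58, -2.56 and -2.42 in vehicle mice 1 to 4, -3.49, -2.68 and -1.83 in low-dose mice 7, 8 and 9, -2.38, -3.68, -2.80 and -2.58 in medium-dose mice 11, 12, 13 and 15, and -3.42, -3.68 and -2.73 in high-dose mice 16, 17 and 20. The vehicle mice spanned a narrow range and the dosed mice a wide one, and 3 of 3 high-dose mice lay below all vehicle mice, an order that 1.11% of probes had. The difference at D3 was -0.77 (SE 0.37, 95% interval -1.57 to 0.03, adjusted p 1.00 in limma) and the trend was -0.77 per 100 mg/kg-bw/day (95% interval -1.49 to -0.06, adjusted p 1.00). Forestomach arrays differed in their content of glandular stomach, with marker scores of -5.07 to 0.32 at D0 and -4.42 to 0.05 at D3, and with that score in the fit the H1f5 difference at D3 was -0.82. The other genes were also below vehicle at D3 in their means, with differences of -0.15 for H1f0, -0.38 for H1f1 and -0.30 for H1f4, each with a 95% interval across 0 and none called. Without 1 array they ran from -0.33 to 0.12, from -0.71 to -0.19 and from -0.57 to -0.07. With the ratios of the scanner software H1f0 was 0.20 above and H1f1 differed by -0.79. H1f1 differed by -0.34 at D2, where 3 of 4 mice lay below all vehicle mice, and by 0.06 at D1, while H1f0 differed by 0.37 at D1 (0.07 with the slide as a block and 0.82 with scanner ratios, neither called) and -0.10 at D2, and H1f4 by -0.04 and 0.06.

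**Figure D3:**
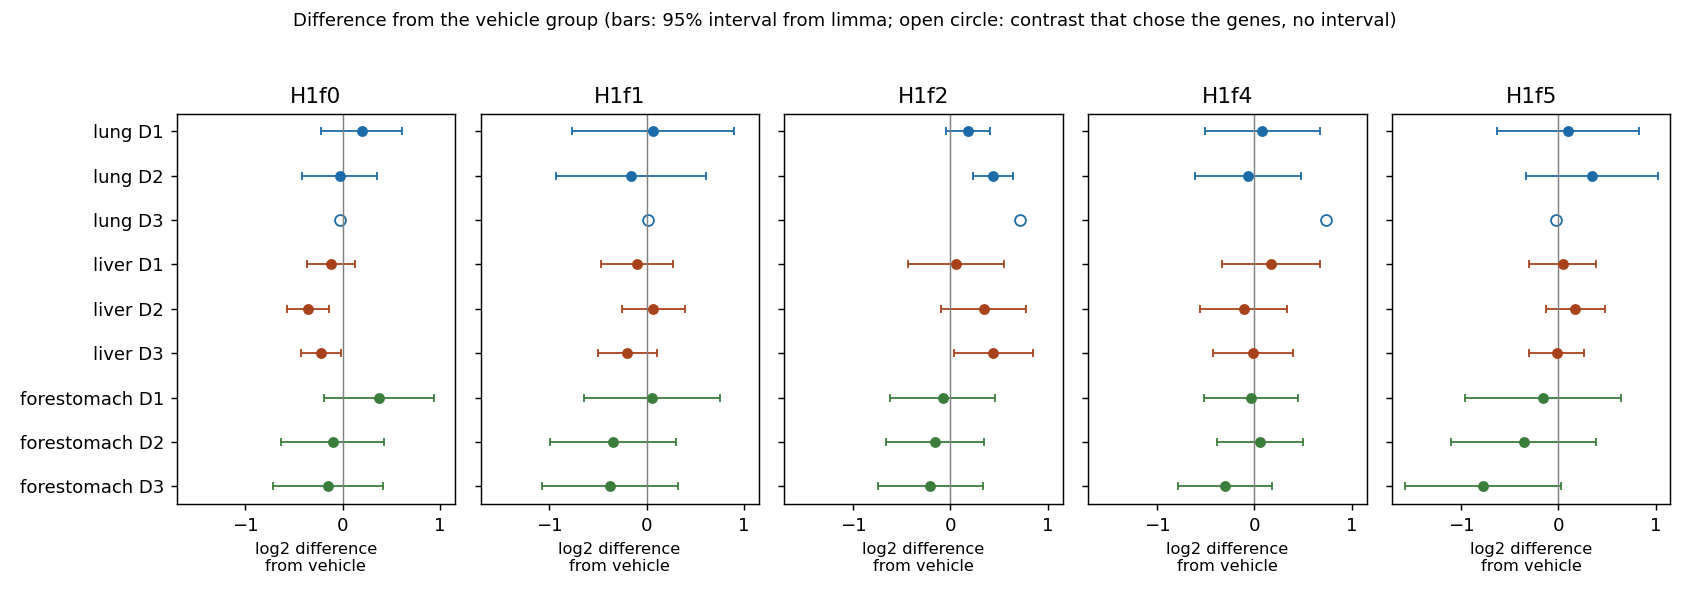
Difference of each tested linker histone gene from vehicle (log2, horizontal axis) at each dose in lung, liver and forestomach; points are limma estimates and lines are 95% intervals, and high-dose lung, which chose the genes, is an open circle without an interval. H1f2 lies at 0.44 in medium-dose lung and at 0.44 in high-dose liver but at -0.21 in high-dose forestomach, where H1f5 lies at -0.77.

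The dose effects were then compared between tissues, leaving out high-dose lung. Those with lung still used the vehicle lung arrays of the contrast that chose the genes, so they are not independent of that choice. At the medium dose the H1f2 effect in lung exceeded that in forestomach by 0.59 (95% interval 0.06 to 1.12, adjusted p 0.475 in limma) and that in liver by 0.09 (95% interval -0.45 to 0.64, adjusted p 1.00). The effect in liver exceeded that in forestomach by 0.50 at the medium dose (95% interval -0.05 to 1.05, adjusted p 0.598) and by 0.65 at the high dose (95% interval 0.09 to 1.20, adjusted p 1.00), a value that ran from 0.39 to 0.92 when forestomach mouse 20 or 16 was left out. None of these differences between tissues was called, nor was that of any other linker histone gene, against 0.0328%, 0.0243%, 0.0665% and 0.00605% of probes called in the same order. The wide interval for lung against liver does not show that the effect of BkF on H1f2 was alike in both.

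Levels were also compared between the tissues of vehicle mice. In these mice, forestomach had the highest and liver the lowest mean level of each of the 4 clustered genes tested. For H1f2 the order of lung and liver turned with the ratios of the scanner software, as given below. Glandular stomach content varied over the vehicle forestomach arrays, with scores of -5.07 to 0.32, and its part in these levels was not tested. H1f5 had the widest range: its levels in mice 1 to 4 were -2.47, -2.58, -2.56 and -2.42 in forestomach, -4.67, -4.86, -4.54 and -3.87 in lung, and -5.77, -5.74, -5.65 and -5.95 in liver. The 3 sets did not overlap, and H1f5 was lower in liver than in forestomach by 3.27 (9.65-fold, the size of the log2 difference of -3.27, adjusted p 1.99e-11 in limma). H1f5 was also lower in lung than in forestomach (-1.98, adjusted p 1.55e-06) and higher in lung than in liver (1.29, adjusted p 0.000381 in limma).

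H1f2 had vehicle levels in mice 1 to 4 of 1.45, 1.65, 1.47 and 0.88 in forestomach, 0.31, 0.24, 0.28 and 0.16 in lung, and -0.01, -0.00, 0.36 and -0.21 in liver. Forestomach lay above both other tissues in 4 of 4 mice, while lung and liver overlapped. The difference from forestomach was -1.11 in lung (95% interval -1.49 to -0.74, adjusted p 5.91e-06 in limma) and -1.33 in liver (95% interval -1.70 to -0.95, adjusted p 1.64e-07), and lung and liver differed by 0.21 (95% interval -0.16 to 0.59, adjusted p 0.343). With the ratios of the scanner software the difference of lung from liver was -0.11, also not called. All 4 high-dose lung levels of H1f2, 0.74 to 1.16, were below those of vehicle forestomach in mice 1, 2 and 3. The forestomach level of mouse 4, 0.88, lay within their range. These lung levels are from the contrast that chose the genes and are a description.

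For H1f4 the vehicle means were -1.47 ± 0.25 in forestomach, -1.91 ± 0.40 in lung and -2.56 ± 0.21 in liver (SD, n = 4 each). Liver was lower than forestomach (-1.09, adjusted p 0.000155 in limma), lung was higher than liver (0.65, adjusted p 0.0160), and lung and forestomach, which follow each other in this order, were not called apart (-0.44, adjusted p 0.117). The call between lung and liver was lost without lung mouse 4 (0.47, adjusted p 0.0983 in limma) or liver mouse 4 (0.58, adjusted p 0.0514). Without lung mouse 4, lung and forestomach were called apart (-0.62, adjusted p 0.0300). H1f1 had means of -1.42 ± 0.39, -2.51 ± 0.53 and -2.83 ± 0.14 in forestomach, lung and liver (SD, n = 4 each). It was called lower in lung (-1.09, adjusted p 0.00334 in limma) and in liver (-1.41, adjusted p 0.000194) than in forestomach, and lung and liver were not called apart (0.32, adjusted p 0.397). In each tissue the H1f1 probe was well above background on only 2 of 4 vehicle arrays. Its mean sample signals before normalisation were 95 in lung, 93 in liver and 87 in forestomach, so the order of the ratios was not seen in them.

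H1f0 had another order. Its vehicle levels in mice 1 to 4 were -0.62, -0.53, -0.76 and -0.74 in liver, -0.40, -1.22, -1.50 and -0.73 in forestomach, and -1.63, -1.70, -2.02 and -1.30 in lung. Lung lay below liver in 4 of 4 mice (-1.0, adjusted p 2.28e-05 in limma) and was called lower than forestomach (-0.70, adjusted p 0.00235), where 2 of 4 arrays were not well above background. Liver and forestomach were not called apart (0.30, adjusted p 0.188 in limma). With the ratios of the scanner software in place of loess-normalised ones, H1f0 was not called between lung and forestomach (-0.41, adjusted p 0.230) and was called higher in liver than in forestomach (0.90, adjusted p 0.00603). The call between lung and forestomach also fell under 1.5-fold without lung mouse 3 (-0.58) or forestomach mouse 1 (-0.51).

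In all, 3 of 5 linker histone genes were called between vehicle lung and liver, where 40.8% of all probes were called, 4 of 5 between lung and forestomach (33.5%) and 4 of 5 between liver and forestomach (37.5%). All comparisons with liver are also comparisons between slides and scanner software versions.

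**Figure D4:**
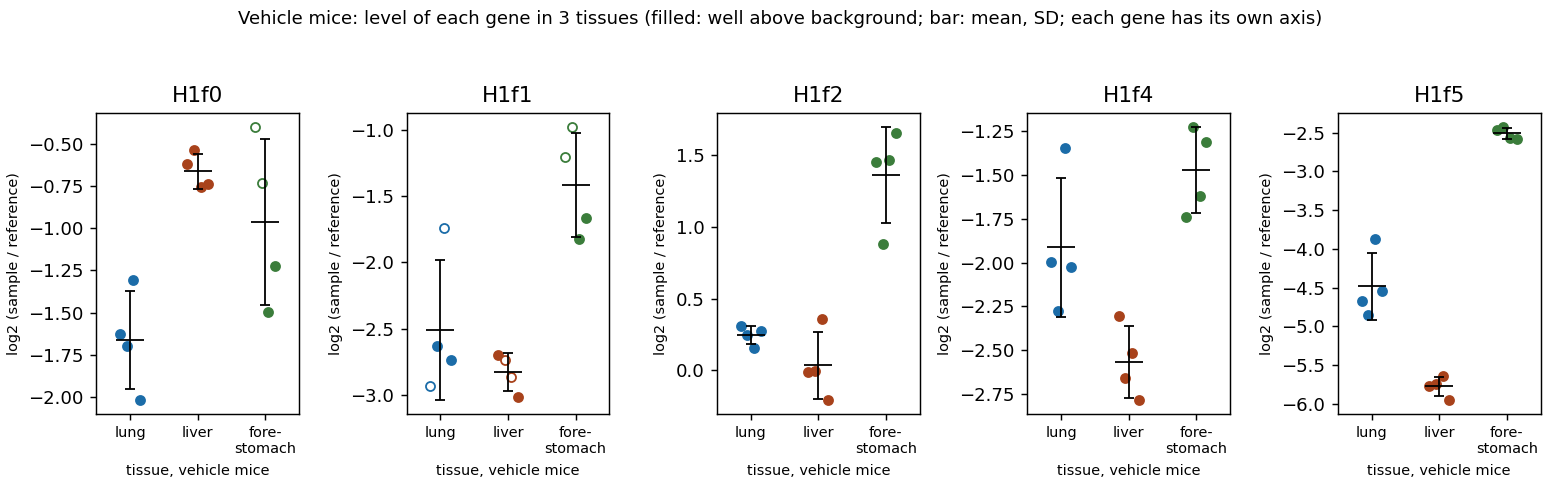
Level of each tested linker histone gene in vehicle mice (log2 ratio of tissue over reference, vertical axes, one for each gene) in lung, liver and forestomach (horizontal axes); points are mice, filled where well above background, and bars give mean and SD (n = 4). H1f5 falls from a mean of -2.51 in forestomach to -4.48 in lung and -5.78 in liver, whereas H1f0 is highest in liver at -0.66.

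Core histone genes, whose products form the nucleosome and which share the replication-dependent clusters, were set beside the linker histones. Of 61 listed genes 41 had a probe and 35 were kept in lung, and 0 of these were called at D1 or D2. Their median lung differences were 0.04, 0.11 and 0.06 at D1, D2 and D3, where the median over all probes lay within 0.01 of 0, and the values at D3 ran from -0.15 to 0.49. In liver 0 of 29 were called, with medians of -0.10, -0.05 and -0.11. In forestomach 0 of 33 were called, and their median was -0.32 at D3, where the difference of H1f5 was -0.77. At this dose 29 of 33 lay below vehicle, while 50.8% of all forestomach probes lay above it. The 33 genes were measured on the same arrays, so this count carries no test. Between vehicle tissues, 19 of 35 were called higher in lung than in liver, led by H2ac22 (1.89, adjusted p 1.79e-11 in limma), and 5 lower (H4c8, H4c9, H2ac18, H2bc4 and H2bc14), where 40.8% of all probes were called in either direction. In lung 15 of 35 were called lower than in forestomach, led by H2ac10 (-1.04, adjusted p 1.27e-09 in limma), and 1 higher (H2bc6, 1.15), against 33.5% of all probes. In liver 20 of 33 were called lower than in forestomach, led by H2ac10 (-2.12, adjusted p 3.71e-18 in limma), and the 5 called higher were the 5 that were lower in lung than in liver, against 37.5% of all probes. Core histone genes of one type are nearly identical in sequence, so a probe may read several of them. The minority genes in these counts were named after their values were seen.

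Clustered histone genes are transcribed during DNA replication, so genes of DNA replication and cell division were also examined. Of 21 such genes 19 were kept in lung, with median differences of 0.19, 0.16 and 0.23 at D1, D2 and D3. At D1 or D2 0 were called. At D3, the contrast that chose the linker histone genes, 18 of 19 lay above vehicle, against 50.9% of all probes. The 19 genes were measured on the same arrays, and nothing is read from this count. In liver the medians over 16 kept genes were -0.03, 0.36 and 0.16, and in forestomach, over 19 genes, 0.28, 0.16 and -0.07, with 0 called. In vehicle mice 12 of 19 were called lower and 0 higher in lung than in forestomach, led by Ccnb1 (-1.76, adjusted p 3.23e-08 in limma), where 33.5% of all probes were called in either direction. In liver 14 were called lower than in forestomach, led by Mki67 (-2.69, adjusted p 1.05e-13 in limma), and 1 higher (Cdk1, 1.69), against 37.5% of all probes. Genes for the synthesis and 3′ end processing of histone mRNA (11 of 12 kept in lung) had a median of -0.11 at D3 in lung, and linker histone chaperones and binding proteins (4 of 4 kept) had 0.12, with a range of -0.09 to 0.48, and 0 genes of both lists were called at D1 or D2. The other linker histones, those of the germ line and H1f10, were kept for 3 of 5 genes in lung, with differences of -0.16 to 0.14 at D3 and 0 called at D1 or D2. The replication-independent core histone variants had a lung median of 0.04 at D3 over 9 genes, also with 0 called at D1 or D2. The Ah receptor targets, as a sign of exposure, had 3 of 5 genes (Ahrr, Cyp1a1 and Cyp1b1) called higher in lung at D2, where 0.0153% of all probes were called.

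Within dose groups, after group means were removed, H1f2 and the other tested genes had different patterns of correlation across arrays. In lung (15 arrays) all pairs among H1f0, H1f1, H1f4 and H1f5 were positive. They ran from 0.30 for H1f4 and H1f5 to 0.88 for H1f1 and H1f5. Each of these 4 genes had its highest lung slide mean on slide 3. It was -1.38 there for H1f0 and for H1f4, against -2.02 to -1.59 and -1.94 to -1.74 on the other slides. Slide differences were not removed from these correlations. H1f2 had lung correlations of -0.58 to 0.03 with these 4 genes. In liver (13 arrays) the pairs among H1f1, H1f4 and H1f5 ran from 0.58 to 0.79, while H1f2 had 0.05 to 0.31 with the other 4 genes and H1f0 had -0.16 to 0.08. In forestomach (14 arrays) the pairs among H1f1, H1f4 and H1f5 ran from 0.49 to 0.71, H1f0 and H1f1 had 0.66, and H1f2 had -0.71 to -0.37 with the other 4 genes. These are correlations of arrays that share slides and dose groups and carry no test.

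The genes whose lung levels were most like those of H1f2 were sought over 14949 named genes by Pearson correlation across the 15 lung arrays, which include the dose groups. They were Ces1g (0.92), a carboxylesterase, Slc46a3 (0.91), a lysosomal transporter, 4931440P22Rik (0.90), Gstp2 (0.86), a glutathione S-transferase, and Ccno (0.85). The most opposite were Tusc3 (-0.87), Mgat4b (-0.85) and Selenoi (-0.84). In liver, over 13 arrays and 14127 genes, the most alike were Mks1 (0.88), Pigs (0.87), Scfd1 (0.87), Iqcc (0.85) and Polr1e (0.85), none of which is among the genes most alike in lung.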

How the data were processed

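RNA of lung, liver and forestomach was hybridised to 42 2-colour Agilent arrays (15 mice, Cy5 sample, Cy3 reference, no dye swap). The authors deposited 1 scanner file per array with median intensities of both channels per spot and a log10 ratio made by Feature Extraction (10.7.3.1 for lung and forestomach, 11.0.1.1 for liver, per the file headers). The authors also deposited LOWESS-normalised log2 ratios of all arrays, made without background subtraction. The lung and forestomach columns of these correlated at 0.994 to 0.999 with the values computed here, and the liver columns at -0.0030 to 0.00034, so they were not used for liver.

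Here each array's log2 ratios of median intensities were loess-normalised with limma 3.58.1 (R 4.3.3, with the data.table package, version 1.17.8). Control spots and spots with outlier flags were left out, and spots of 1 probe were averaged, giving 55681 probes. A probe was kept if Cy5 was, by the scanner's own call, well above background on 3 lung, 2 liver or 3 forestomach arrays or more, which left 32697, 30460 and 25305 probes. Probes were named by RefSeq accession (26413 probes, GRCm38.p6). Doses were compared within each tissue, and tissues in a fit of all arrays, with lmFit and eBayes in place of the authors' MAANOVA, which was not at hand. Benjamini-Hochberg adjustment was over all probes, and calls needed an adjusted p no higher than 0.05 together with a change of 1.5-fold or more, or for a trend the adjusted p alone. The number of arrays limits the precision. Fits were tested on simulated data.

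The genes and lists were chosen with earlier results of these data known. All 6 genes were named. From the lists, genes were named only if called, at most 3 for a list and comparison, and genes like H1f2 were the 5 with the highest and 3 with the lowest correlation. A marker score is the mean of the list's log2 ratios relative to the arrays of the tissue. Alternatives were the scanner ratios, the authors' table, normexp (offset 50), no filter, slide or mouse as a block, only the groups compared, the glandular stomach score as a covariate, and each array left out. Mouse numbers mark the same animals. Deviations of 1 mouse from its group means had a median correlation of 0.133 between lung and forestomach (14 mice), 0.037 between lung and liver (13) and 0.020 between liver and forestomach (12). Probe sequences were not used here, and reading of 1 linker histone transcript by another's probe was not tested.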

Additional observations from a re-analysis of the deposited data

Results flagged for a closer look

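H1f4 in medium-dose forestomach had 1 level far from the others of its group: mouse 12 had -1.72, and the other 3 mice had -1.34 to -1.29. Of the groups of linker histone levels, 42 were examined in this way, and chance alone marks about 1 in 20. The same forestomach array also had the lowest H1f5 level of its group, -3.68.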

How the results depend on the processing

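No linker histone gene was called in any tested dose, trend or dose effect between tissues under any alternative, and no called difference turned in direction. Calls between vehicle tissues changed only for H1f0 and H1f4, as given in the report. Without 1 array H1f2 was 0.41 to 0.46 in lung D2 and 0.65 to 0.79 in lung D3. With scanner software ratios H1f0 in lung D3 moved from -0.03 to -0.46 and H1f1 from 0.02 to -0.18, and normexp gave H1f1 -0.022 there. Besides those of lung D3 in the report, the following uncalled differences changed sign, and the cause was not tested. Scanner software ratios gave H1f1 -0.090 in lung D1, H1f0 0.17 in lung D2, H1f5 -0.049 in liver D1, H1f1 0.010 and H1f5 0.044 in liver D3, H1f0 0.20 in forestomach D3, H1f1 0.11 and H1f5 0.074 in the liver trend and H1f2 -0.11 in vehicle lung against liver. Slide as a block gave H1f1 -0.036 and H1f4 -0.0031 in lung D1 and H1f1 -0.076, H1f2 0.17 and H1f4 0.048 in forestomach D1. The glandular stomach score as a covariate gave H1f4 0.081 and H1f5 0.079 in forestomach D1. Leaving out 1 array at a time gave H1f1 -0.23 to 0.32, H1f4 -0.041 to 0.27 and H1f5 -0.14 to 0.30 in lung D1, and H1f4 -0.19 to 0.12, H1f0 -0.15 to 0.13 and H1f1 -0.40 to 0.10 in lung D2, and H1f0 -0.24 to 0.0089, H1f5 -0.033 to 0.12 and H1f2 -0.32 to 0.44 in liver D1. Further such ranges were H1f4 -0.33 to 0.095 and H1f1 -0.060 to 0.14 in liver D2, and H1f4 -0.11 to 0.12 and H1f5 -0.11 to 0.072 in liver D3, and H1f4 -0.12 to 0.078, H1f5 -0.58 to 0.26, H1f1 -0.14 to 0.21 and H1f2 -0.24 to 0.036 in forestomach D1. Others were H1f0 -0.28 to 0.085 and H1f4 -0.032 to 0.16 in forestomach D2, and H1f0 -0.33 to 0.12 and H1f2 -0.48 to 0.047 in forestomach D3, and H1f4 -0.15 to 0.066 and H1f5 -0.089 to 0.086 in the liver trend. The same held for H1f2 -0.46 to 0.0023 in the forestomach trend, and H1f4 -0.16 to 0.27, H1f1 -0.47 to 0.030, H1f5 -0.052 to 0.38 and H1f2 -0.020 to 0.17 in the D2 effect, lung less liver, and H1f4 -0.24 to 0.067, H1f0 -0.12 to 0.25 and H1f1 -0.055 to 0.44 in the D2 effect, lung less forestomach. Ranges across zero were also found for H1f4 -0.39 to 0.038 in the D2 effect, liver less forestomach, and H1f0 -0.34 to 0.11 and H1f1 -0.0089 to 0.52 in the D3 effect, liver less forestomach.

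Mouse as a replicate block, which paired the tissues, changed no call on these genes, and H1f2 was 0.59 in the D2 effect, lung less forestomach. Probes called with it went from 11 to 50 for that effect, from 22 to 60 for liver less forestomach at D2 and from 2 to 4 at D3.

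Counts of all probes called also moved. Slide as a block took them from 5 to 11 in lung D2, 11 to 26 in lung D3, 13 to 1 in liver D2 and 16 to 10 in liver D3. Scanner ratios gave 1, 1 and 3 in lung D1 to D3, 9 in liver D3, and 5 and 3 (from 9 and 11) for D2 lung less liver and less forestomach. Fitting only the compared groups gave 333 (from 0) in forestomach D1, 2, 4 and 46 in liver D1 to D3, 1, 1 and 5 for the D2 effects and 0 at D3, where normexp gave 4. Leaving out 1 array gave 0 to 8 in lung D2, 3 to 26 in lung D3, 0 to 159 in liver D2, 2 to 22 in liver D3 and up to 353 for the D2 effects. Where 0 probes were called, the limma p was under 0.05 before adjustment for 577 in lung D1, 468 in liver D1, 3070, 1920 and 557 in forestomach D1 to D3, and 2623 and 712 in the liver and forestomach trends. The authors' ratios were not run with liver. Arrays on which H1f0 and H1f1 were not well above background limit their precision.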
